A study of Mus musculus with 11 samples.

Results

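The Hox cluster genes described are 38 of the 23284 genes listed in each library, each with a symbol made of Hox, a cluster letter from a to d and a paralogue number. They comprised 10 genes of the Hoxa cluster, 10 of Hoxb, 9 of Hoxc and 9 of Hoxd. The rule reads symbols alone.

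RNA sequencing of mouse embryonic stem cells (ESCs) gave 11 libraries in 5 groups. Wild-type (WT) ESCs and ESCs with Tet1, Tet2 and Tet3 knocked out (TKO) were collected at 0 h or after 4 h of α-amanitin. This toxin blocks RNA polymerase II and was given at 10 µg/ml. Total RNA of these cells was depleted of ribosomal RNA, with 2 libraries per group. The labels call the 0 h libraries non-treated, and the paper's methods name water as the vehicle of control cells. Another 3 libraries held polyadenylated RNA of WT ESCs (WT polyA), for which the labels give no treatment. All cells were kept on gelatin with serum and leukemia inhibitory factor (LIF), without a feeder layer named. The TKO cells came from earlier work, the sources used here do not say how many clones they represent, and clone and genotype cannot be told apart. The paper describes the α-amanitin experiments in WT and TKO cells as biological duplicates. The labels do not say whether libraries of a group came from separate cultures. The p-values measure the spread between libraries, part of which may be technical.

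Hox genes encode homeodomain transcription factors that give cells their position along the body axis. Each cluster is ordered so that paralogues with low numbers are switched on first and toward the head, and those with high numbers later and toward the tail. In ESCs the clusters are held silent by Polycomb repressive complex 2 (PRC2), which methylates lysine 27 of histone H3, and retinoic acid opens them from the low-numbered end. TET enzymes oxidise 5-methylcytosine, which in DNA lies mostly in CpG dinucleotides.

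Values are TPM, a measure of relative abundance in which reads are divided by gene length before every library is brought to the same total, so levels of different genes can be set side by side. The TPM steps gave back whole reads for 100% of the 19869 genes above 0, from 25507874 to 29781366 reads per ribodepleted library and from 72639837 to 82129168 per polyA library. The genotype labels were checked on the targeted genes. Tet1 lay between 21.3 and 32.8 TPM in the 4 TKO libraries and between 108.5 and 147.7 TPM in the 4 ribodepleted WT libraries. Tet2 lay between 5.91 and 8.32 TPM against 40.4 and 57.2 TPM, whereas Tet3 overlapped, at 1.16 to 1.64 TPM against 1.06 to 1.47 TPM, and so does not tell the genotypes apart by its level. The 6 pluripotency markers were all above 1 TPM in every group. Of 11 fibroblast feeder markers, between 3 and 5 passed 1 TPM.

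Promoter sequence was on hand for 22 of the 38 genes (RefSeq, GRCm38.p6). The 250 bases upstream of the start held a median of 12.5 CpG over the 24 entries, with a range from 2 to 35, and the median over all 32851 promoters of the table was 6. At least 10 CpG were found in 62.5% of the Hox entries and in 37.8% of all promoters. Hoxd13, which passed 1 TPM in polyA RNA, and Hoxd1, which had no read in WT cells at 0 h, are shown 5′ to 3′ with each CpG in capitals. Both are on the plus strand. CpG reads the same on both strands, and none overlaps another. Methylation was not measured in these libraries.
Hoxd13, chr2:74667975-74668224, 31 CpG: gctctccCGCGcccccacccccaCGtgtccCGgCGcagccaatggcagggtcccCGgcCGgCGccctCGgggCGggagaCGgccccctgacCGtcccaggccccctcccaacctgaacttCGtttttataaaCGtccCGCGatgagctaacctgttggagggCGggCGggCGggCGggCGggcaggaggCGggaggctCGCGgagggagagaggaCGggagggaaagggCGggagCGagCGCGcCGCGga
Hoxd1, chr2:74762730-74762979, 24 CpG: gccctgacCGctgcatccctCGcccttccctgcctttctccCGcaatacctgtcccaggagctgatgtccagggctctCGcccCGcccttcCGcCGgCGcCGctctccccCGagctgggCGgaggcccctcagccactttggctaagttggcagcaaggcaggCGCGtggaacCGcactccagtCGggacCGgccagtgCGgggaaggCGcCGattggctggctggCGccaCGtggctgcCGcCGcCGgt

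Hardly any of these genes reached 1 TPM. By group means, 1 of the 38 genes was over 1 TPM in WT polyA, and 0 were in WT at 0 h, WT at 4 h, TKO at 0 h and TKO at 4 h. In comparison, 52.7%, 52.6%, 51.4%, 54.6% and 53.9% of all 23284 genes passed that limit in these groups. The gene over the limit was Hoxd13. In single libraries Hoxb13 also passed it once, in replicate 1 of TKO at 0 h. No gene of the Hoxb or Hoxc cluster passed by its mean in any group. At 0 h the median of the 38 genes stood at 0.0405 TPM in WT cells and 0.0568 TPM in TKO cells, with 6.95 and 7.32 TPM as the medians of all genes above 0.

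The 38 genes together drew 863 reads over the 8 ribodepleted libraries, of which 5 genes (Hoxd13, Hoxc13, Hoxb13, Hoxb9 and Hoxb4) held 55.2%. These 5 had 144, 126, 87, 80 and 39 reads in that order. Between 23 and 29 members had a read in any one ribodepleted library, and between 32 and 34 in a polyA library. Every one of the 38 had at least 1 read somewhere in the ribodepleted libraries, and 12 had a read in all 8. Hoxa6 was the sparsest of them, with 1 read in the 8 ribodepleted libraries and 1 in the 3 polyA libraries. In polyA RNA, Hoxc11 and Hoxd12 had 0 reads in all 3 libraries. A count of 0 in a ribodepleted library allows up to 3 reads, which covers counting error only.

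**Figure D1:**
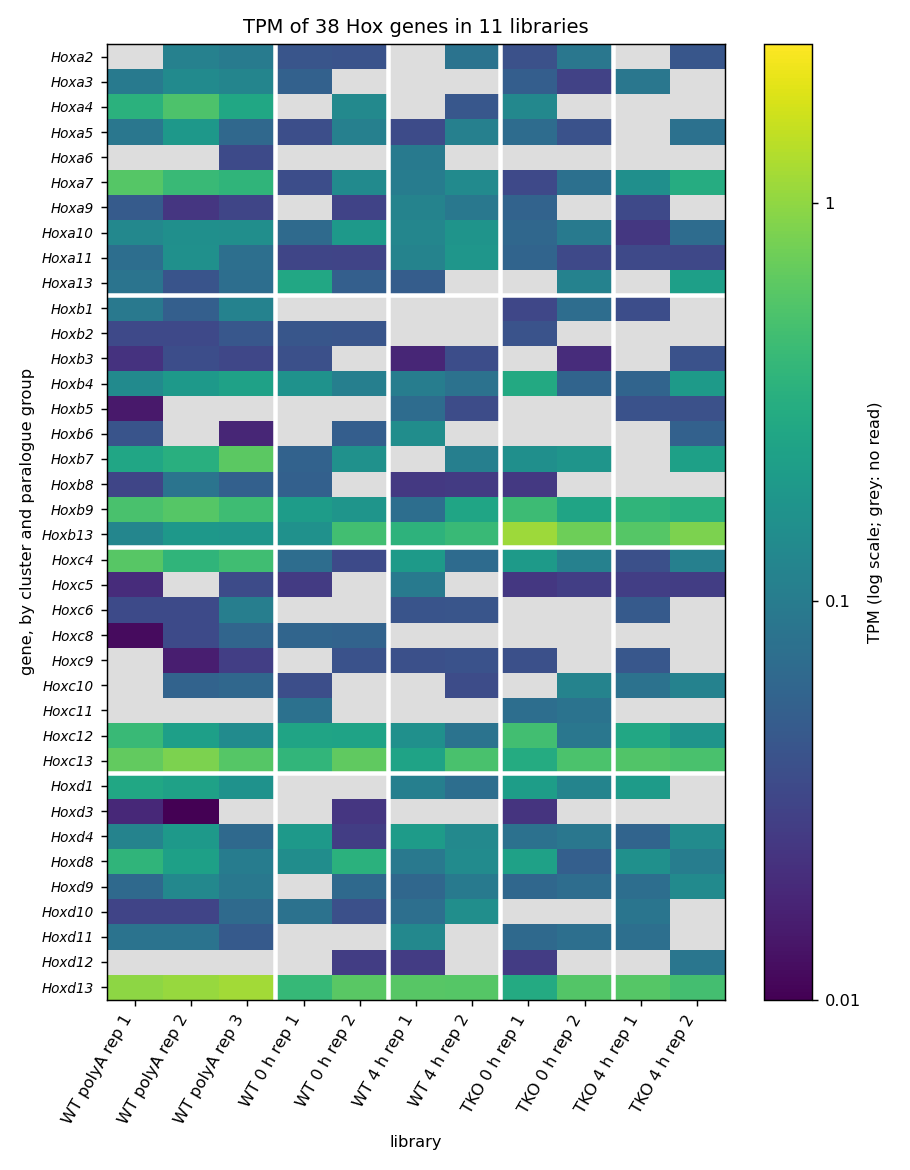
TPM (colour, log scale) of 38 Hox genes (rows, by cluster and paralogue number) in the 11 libraries (columns); grey cells had no read. Hoxd13 passes 1 TPM in 2 of the 3 polyA libraries, and Hoxb13 in 1 library, replicate 1 of TKO at 0 h.

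Hoxd13, a posterior gene needed for digit formation, measured 0.982, 1.06 and 1.18 TPM in WT polyA. It stood at 0.403 and 0.614 TPM in WT at 0 h and at 0.592 and 0.582 TPM in WT at 4 h. The TKO values were 0.296 and 0.579 TPM at 0 h and 0.586 and 0.478 TPM at 4 h. The polyA libraries lay above all 8 ribodepleted ones, and WT and TKO overlapped at 0 h. Hoxc13, which acts in hair and nail, averaged 0.702 ± 0.134 TPM in WT polyA (SD, n = 3). At 0 h it averaged 0.518 ± 0.193 TPM in WT cells and 0.415 ± 0.160 TPM in TKO cells (SD, n = 2 each), a difference within the spread between libraries.

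**Figure D2:**
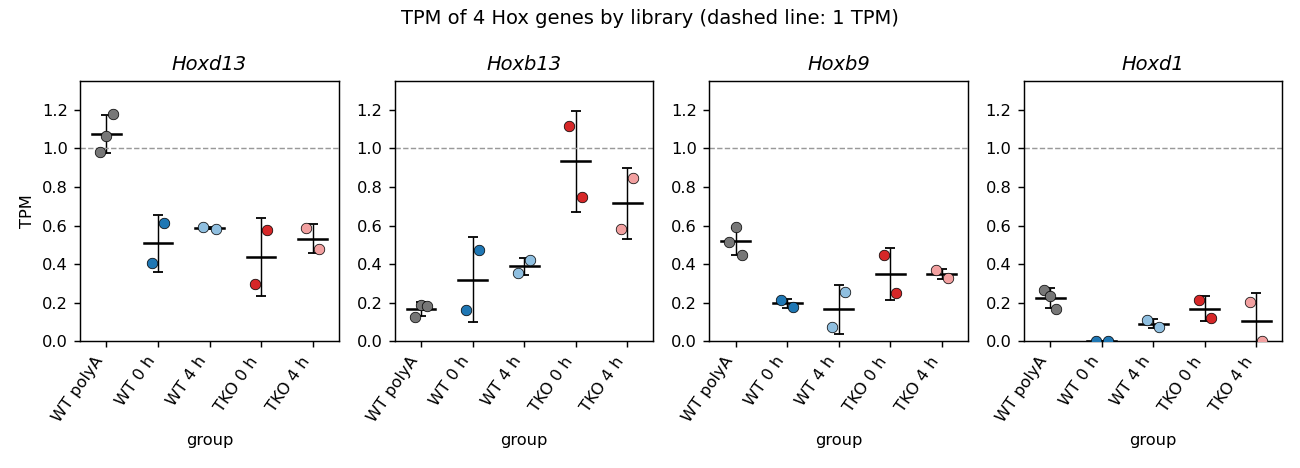
TPM of Hoxd13, Hoxb13, Hoxb9 and Hoxd1 in each library (points), with the group mean (line) and SD (bars); n = 3 for WT polyA and 2 for the others, and the dashed line marks 1 TPM. The 4 TKO points lie above the 4 ribodepleted WT points for Hoxb13, the polyA points lie highest for Hoxd13, and Hoxd1 has no read in WT at 0 h.

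Between the Hoxb, Hoxc and Hoxd clusters, summed TPM differed little in ribodepleted WT cells at 0 h, where Hoxd reached 0.983 ± 0.218 TPM, Hoxc 0.973 ± 0.0878 and Hoxb 0.878 ± 0.202 (SD, n = 2 each). Neighbours in that order overlapped between libraries. The 10 Hoxa genes summed to 0.645 ± 0.138 TPM. In polyA RNA the order was the same, with Hoxd at 1.88 ± 0.137 TPM, Hoxc at 1.62 ± 0.141 and Hoxb at 1.52 ± 0.242 (SD, n = 3 each), and neighbours overlapped again. The 10 Hoxa genes summed to 1.51 ± 0.253 TPM there. Each of the 4 polyA sums was above that of every ribodepleted WT library.

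By genotype, the Hoxb sum stood apart. It was 0.735 and 1.02 TPM in the libraries of WT at 0 h and 0.800 and 0.962 TPM in WT at 4 h. In TKO it was 2.10 and 1.33 TPM at 0 h and 1.09 and 1.75 TPM at 4 h, so the TKO and WT libraries did not overlap at either time. The sums of the 10 Hoxa genes did not overlap at 0 h, at 0.510 and 0.483 TPM in TKO against 0.547 and 0.742 TPM in WT, but did at 4 h. Hoxc sums overlapped at 0 h and not at 4 h, at 1.08 and 0.949 TPM in TKO against 0.787 and 0.779 TPM in WT. Hoxd sums overlapped at both times. With 2 libraries a group, an exact two-sided permutation test of such a sum cannot go below p = 0.333, so none was run. On scaled TPM, the values divided by each library's size factor, the Hoxb sums met at 4 h, at 1.04 TPM for the lowest TKO and 1.05 TPM for the highest WT library. The Hoxc difference at 4 h shrank from 0.37 to 0.21 on the log2 scale.

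Hoxb13 held most of the difference in summed TPM at 0 h. The sum of the 38 genes was 3.48 ± 0.646 TPM for WT libraries and 4.25 ± 0.683 TPM for TKO libraries (SD, n = 2 each), and the libraries overlapped. Without Hoxb13, the other 37 summed to 3.16 ± 0.426 and 3.31 ± 0.422 TPM, which differ by less than the spread between replicates. The Hoxb cluster without Hoxb13 came to 0.559 ± 0.0181 TPM (WT) and 0.785 ± 0.285 TPM (TKO), with no overlap at 0 h and an overlap at 4 h. Grouped by paralogue number, 7 genes numbered 1 to 3 summed to 0.144 ± 0.0520 TPM (WT) and 0.369 ± 0.0484 TPM (TKO), and did not overlap at 0 h but did at 4 h. Hoxd1, at a mean of 0.168 TPM in TKO and 0 in WT, made up much of that difference. The 15 genes numbered 4 to 8 summed to 1.02 ± 0.224 TPM (WT) and 0.941 ± 0.427 TPM (TKO), and overlapped. The 16 genes numbered 9 to 13 summed to 2.32 ± 0.474 TPM (WT) and 2.94 ± 0.207 TPM (TKO), and without Hoxb13 to 2.00 ± 0.254 and 2.00 ± 0.0537 TPM.

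The genotypes also differed in lists of other cell types. The 6 neural progenitor markers summed to 35.9 to 38.2 TPM in TKO and 21.8 to 22.1 TPM in WT at 0 h, with 3 of the 6 above 1 TPM in both genotypes. The 11 fibroblast markers summed to 14.4 to 15.2 TPM against 10.1 to 10.5 TPM, with Lum at 0 in WT. The 7 primitive streak and mesoderm markers summed to 6.16 to 6.74 TPM against 4.95 to 5.41 TPM. Endoderm markers summed lower in TKO, to 2.31 to 2.81 TPM against 4.00 to 4.14 TPM. Pluripotency markers did so too, at 1538 to 1551 TPM against 2203 to 2241 TPM. By call of the limma test described below, 1 of 3 tested neural markers and 1 of 4 fibroblast markers were higher and none lower, 3 of 6 pluripotency markers and the 1 tested endoderm marker were lower and none higher, and 0 of 2 primitive streak markers were called. Of all 12467 tested genes, 1309 were called higher and 677 lower. The median log2 change of the 3 tested neural markers was 0.0055, so the higher neural sum is not a rise of the whole list. Other cell types were not shown to be present, and their part in the Hoxb difference was not tested. More RNA of a Hox gene per cell cannot be told apart from more cells that hold it.

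**Figure D3:**
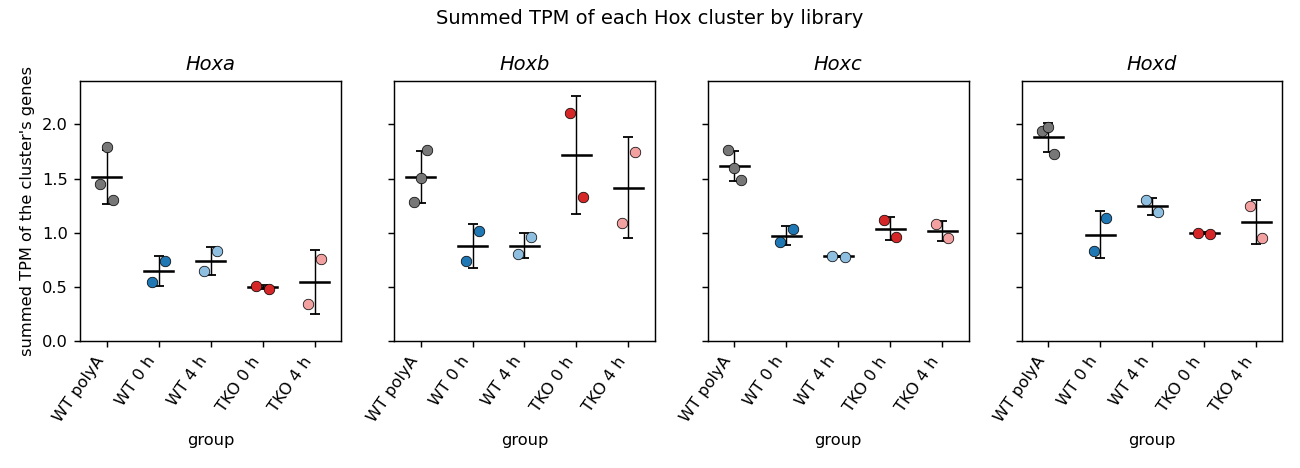
Summed TPM of 38 Hox genes by cluster in each library (points), with the group mean (line) and SD (bars); n = 3 for WT polyA and 2 for the others. The Hoxb sums of the 4 TKO libraries, from 1.09 to 2.10 TPM, lie above the 4 ribodepleted WT libraries, and the polyA sums lie above the ribodepleted WT sums in each of the 4 panels.

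Differences were tested with limma on log2(scaled TPM + 1), a scale that understates changes of low genes, over all genes with a mean scaled TPM above 1. A gene was called with an adjusted p under 0.05 (Benjamini-Hochberg) and a change over 1.5-fold. None of the 38 genes passed that filter, so none was tested and 0 were called in any comparison. The shares called among all genes, both directions together, were 15.9% for TKO against WT at 0 h, 16.8% at 4 h, 2.1% for 4 h against 0 h in WT, 0.16% for the same in TKO, 0% for the interaction of genotype and treatment, and 35.1% for polyA against ribodepleted RNA. With no filter, which brings in the 38 genes and 19470 genes in all, limma again called 0 of the 38. On this scale a gene that stays under 0.5 TPM cannot reach the fold limit. By adjusted p alone, 2 members differed between genotypes at 0 h, Hoxb13 (0.50, adjusted p = 0.0379) and Hoxc8 (-0.08, adjusted p = 0.0368), and 2 at 4 h, Hoxa11 (-0.17, adjusted p = 0.00881) and Hoxa9 (-0.13, adjusted p = 0.0338). The shares of all genes by that rule were 39% and 41.5%. Between polyA and ribodepleted RNA it held for 9 of the 38, all higher in polyA RNA, against 62.3% of all genes in either direction. Of all 19171 genes in that fit, 5794 were higher in polyA RNA and 6153 lower. For the interaction, limma called 0 of the 12467 genes, with 938 at an unadjusted p under 0.05.

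To reach the low genes, limma voom was run on the recovered reads of genes with at least 10 reads over the 8 ribodepleted libraries, a choice made after seeing the data. Of the 38 genes 20 passed. At 0 h, 2 of them (10%) were called higher in TKO and 0 lower, against 14.9% of all genes called higher and 7.05% called lower, so the members' share is not above the background. These were Hoxb13 (log2 change 1.52, SE 0.52, adjusted p = 0.0185) and Hoxd1 (adjusted p = 0.00914). Hoxd1 had 14 reads over the TKO libraries and 5 over the ribodepleted WT libraries, so it passed the read filter mostly through TKO. Neither Hoxb13 nor Hoxd1 was called in every fit that left out 1 library. Hoxb13 lost its call without replicate 1 of WT at 0 h (0.78, adjusted p = 0.270) or replicate 1 of TKO at 0 h (1.21, adjusted p = 0.130), and Hoxd1 without the same libraries (adjusted p = 0.0506 and 0.0575).

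Hoxb13, a posterior gene known for its part in prostate and tail development, measured 0.163 and 0.475 TPM in WT at 0 h, from 3 and 9 reads, and 0.356 and 0.419 TPM in WT at 4 h, from 7 and 8 reads. In TKO it measured 1.12 and 0.748 TPM at 0 h, from 22 and 13 reads, and 0.583 and 0.846 TPM at 4 h, from 10 and 15 reads. The TKO libraries were above the WT libraries at both times. In WT polyA it was lower than in most other libraries, at 0.127, 0.189 and 0.184 TPM. Hoxb9, the next Hox gene of that cluster and a gene of thoracic identity, stood at a mean of 0.196 ± 0.0228 TPM for WT at 0 h and 0.348 ± 0.136 TPM for TKO (SD, n = 2 each). It had 8 and 7 reads in WT at 0 h and 18 and 9 in TKO at 0 h, then 3 and 10 in WT and 13 and 12 in TKO at 4 h. Its voom change was 0.65 at 0 h (SE 0.50, adjusted p = 0.291) and 1.08 at 4 h (SE 0.54, adjusted p = 0.101).

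Hoxd1, whose promoter is printed above, had 0 reads in both libraries of WT at 0 h and 6 and 3 reads in TKO at 0 h, at least 2.92-fold higher against a floor of 3 reads over the group. It had 3 and 2 reads in WT and 5 and 0 in TKO at 4 h, where the genotypes overlapped.

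At 4 h of α-amanitin, 2 of the 20 genes (10%) were called lower in TKO than in WT and 0 higher, against 6.9% of all genes called lower and 15.8% called higher, so the lower share is near the background. These were the neighbours Hoxa9, a regulator of blood progenitors (log2 change -2.22, SE 0.93, adjusted p = 0.0498), and Hoxa11, a gene of limb and uterus (-1.87, SE 0.76, adjusted p = 0.0414). Hoxa9 had 4 and 3 reads in WT and 1 and 0 in TKO, and Hoxa11 had 4 and 6 against 1 and 1. Over both times Hoxa9 had 8 reads in WT and 3 in TKO, and Hoxa11 had 12 and 5, so both passed the read filter mostly through WT. Hoxa10, which lies between them, had 6 and 8 reads against 1 and 3 (-1.73, SE 0.73, adjusted p = 0.0501). All 3 lay lower in TKO with no overlap. On either side of them, Hoxa7 had 12 reads in TKO against 7 in WT and Hoxa13 had 4 against 1, and both overlapped. From 0 h to 4 h in WT, Hoxa9 went from 1 read to 7, Hoxa11 from 2 to 10 and Hoxa10 from 12 to 14. In TKO they went from 2 to 1, from 3 to 2 and from 7 to 4. Hoxa9 lost its call without replicate 2 of TKO at 4 h (-1.44, adjusted p = 0.287), and in 3 of the 8 fits without 1 library it had under 10 reads and was not tested. Hoxa11 lost its call without replicate 2 of WT or either replicate of TKO at 4 h (adjusted p from 0.122 to 0.141), with changes of -1.62, -1.85 and -1.89. At 0 h their voom differences were 0.31, 0.28 and -0.65 for Hoxa9, Hoxa11 and Hoxa10, with adjusted p = 0.833, 0.808 and 0.438.

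The order of scaled TPM in the libraries was also compared, with no filter on reads. At 0 h, 6 of the 35 members with a read (17.1%) were higher in both TKO libraries than in both WT libraries and 3 (8.57%) were lower. The shares of all genes were 37.2% and 33.1%. The 6 were Hoxb1, Hoxb9, Hoxb13, Hoxc4, Hoxd1 and Hoxd11, and 3 of them (Hoxb1, Hoxd1 and Hoxd11) had 0 reads in WT. At 4 h, 4 of 34 members (11.8%) were higher and 8 (23.5%) lower, against 36.8% and 30.7%. Hoxb9 and Hoxb13 were higher at both times, and Hoxd10, which acts in the limb, was lower at both times on 11 reads in all and overlapped at 4 h in deposited TPM. On the log2(scaled TPM + 1) scale the difference at 0 h was above 0 for 17 members and below 0 for 18, with a median of 0 and a range from -0.13 for Hoxd8 to 0.50 for Hoxb13. At 4 h it was above 0 for 13 and below 0 for 21, from -0.17 for Hoxa11 to 0.26 for Hoxb13.

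Treatment with α-amanitin left no called Hox gene among the 38. In the voom fit 0 of 20 members were called for either genotype or for the interaction, with 3 in WT, 1 in TKO and 1 for the interaction at an unadjusted p under 0.05. Of all genes, 3.02% were called in WT, 0.346% in TKO and 0% for the interaction, and 39.7%, 23.6% and 7.45% had an unadjusted p under 0.05. On the log2(scaled TPM + 1) scale the change in WT ran from -0.17 for Hoxa13 to 0.18 for Hoxa11. It was above 0 for 24 members and below 0 for 13. In TKO it ran from -0.12 for Hoxb13 to 0.22 for Hoxa7, which had 12 reads at 4 h and 3 at 0 h. There 18 were above 0 and 18 below. In WT, 10 of 37 members (27.0%) were higher at 4 h without overlap and 3 (8.11%) lower, against 32.6% and 26.8% of all genes. In TKO 5 of 36 (13.9%) were higher and 1 (2.78%) lower, against 27.3% and 21.9%. The median voom change of the 20 members was 0.44 in WT and 0.10 in TKO, against 0.02 and 0.01 over all genes. TPM are shares of a library, so a fall common to all transcripts would not show in them.

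Other genes around the clusters were also compared. Within 300 kb of the cluster on either side (NCBIM37, the mm9 build, chromosome 11, from 96055630 to 96229570), 8 other genes were tested and 4 were called higher in TKO at 0 h. None was called lower. Around Hoxa, 1 of 2 tested genes was called lower and 0 higher, and 0 of 9 around Hoxc and 0 of 2 around Hoxd were called. Among all tested genes 10.5% were called higher. Of the 4 called around Hoxb, Gm53 and Mir196a-1 passed the filter mainly through TKO, with WT means under 1 TPM at both times. Nothing is read from that count against the share of all genes. At 4 h the counts around the clusters were the same but for Hoxc, where 1 of 9 was called higher. This was the microRNA gene Mir688 (1.16, SE 0.21, adjusted p = 0.00134), on 1 and 2 reads in WT and 4 and 5 in TKO. Of the 8 tested genes around Hoxb, 6 lie beyond Hoxb13 and 2 between Hoxb13 and Hoxb9, and 0 were tested beyond the other end, so the calls say nothing of one end against the other.

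Calcoco2, an autophagy receptor whose gene spans 95960640 to 95973278, changed most of the 8. It had 625 and 635 reads in WT at 0 h and 4446 and 3694 in TKO, then 714 and 711 against 3856 and 4078 at 4 h. The groups did not overlap, and the log2(scaled TPM + 1) difference was 2.56 at 0 h (SE 0.05, limma, adjusted p = 2.26e-08) and 2.44 at 4 h (SE 0.05, adjusted p = 2.96e-08). Ttll6, a tubulin polyglutamylase gene between Calcoco2 and Hoxb13 (95995100 to 96026765), had 84 and 52 reads in WT and 311 and 268 in TKO at 0 h, and 59 and 58 against 261 and 228 at 4 h. It was called at both times by limma (adjusted p = 2.67e-05 at 0 h and 2.40e-05 at 4 h), and its log2 change in voom was 2.02 (SE 0.17) at 0 h and 2.03 (SE 0.18) at 4 h.

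Between Hoxb13 and Hoxb9 lie Gm53, annotated as a protein-coding gene (96112419 to 96126182), and the microRNA gene Mir196a-1 (96126478 to 96126579). Gm53 had 4 and 11 reads in WT and 32 and 37 in TKO at 0 h, and 3 and 6 against 25 and 25 at 4 h, a difference of 1.37 at 0 h (SE 0.21, adjusted p = 0.000604) and 1.39 at 4 h (SE 0.21, adjusted p = 0.000495). Mir196a-1 had 0 and 2 reads in WT and 9 and 10 in TKO at 0 h, and 2 and 1 against 4 and 7 at 4 h. Its difference was 2.21 at 0 h (SE 0.38, adjusted p = 0.00119) and 1.24 at 4 h (SE 0.38, adjusted p = 0.0194, and 0.053 under quantile normalisation). Both passed the TPM filter mainly through TKO. At 0 h both kept their calls in limma without any 1 library, under that same filter. At 4 h Mir196a-1 lost its limma call without replicate 2 of WT or of TKO (0.99 and 0.91), and voom on all libraries did not call it at 4 h. In voom it lost its 0 h call without replicate 1 of WT (1.88). Gm53, Mir196a-1 and Hoxb13 share the plus strand. The strand setting of the counting is not given, so reads of an antisense transcript cannot be told apart. The libraries hold long RNA, so reads on Mir196a-1 are not the mature microRNA.

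The 3 genes of the miR-196 family sit in different clusters and share a seed, bases 2 to 8 of the mature strand, printed in capitals from RefSeq (GRCm38.p6). Mir196a-2 in Hoxc and Mir196b in Hoxa had 0 reads in all 11 libraries, so Mir196a-1 is the member of the family with reads.
miR-196a-5p (Mir196a-1 and Mir196a-2): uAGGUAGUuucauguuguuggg
miR-196b-5p (Mir196b): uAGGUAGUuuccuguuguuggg

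**Figure D4:**
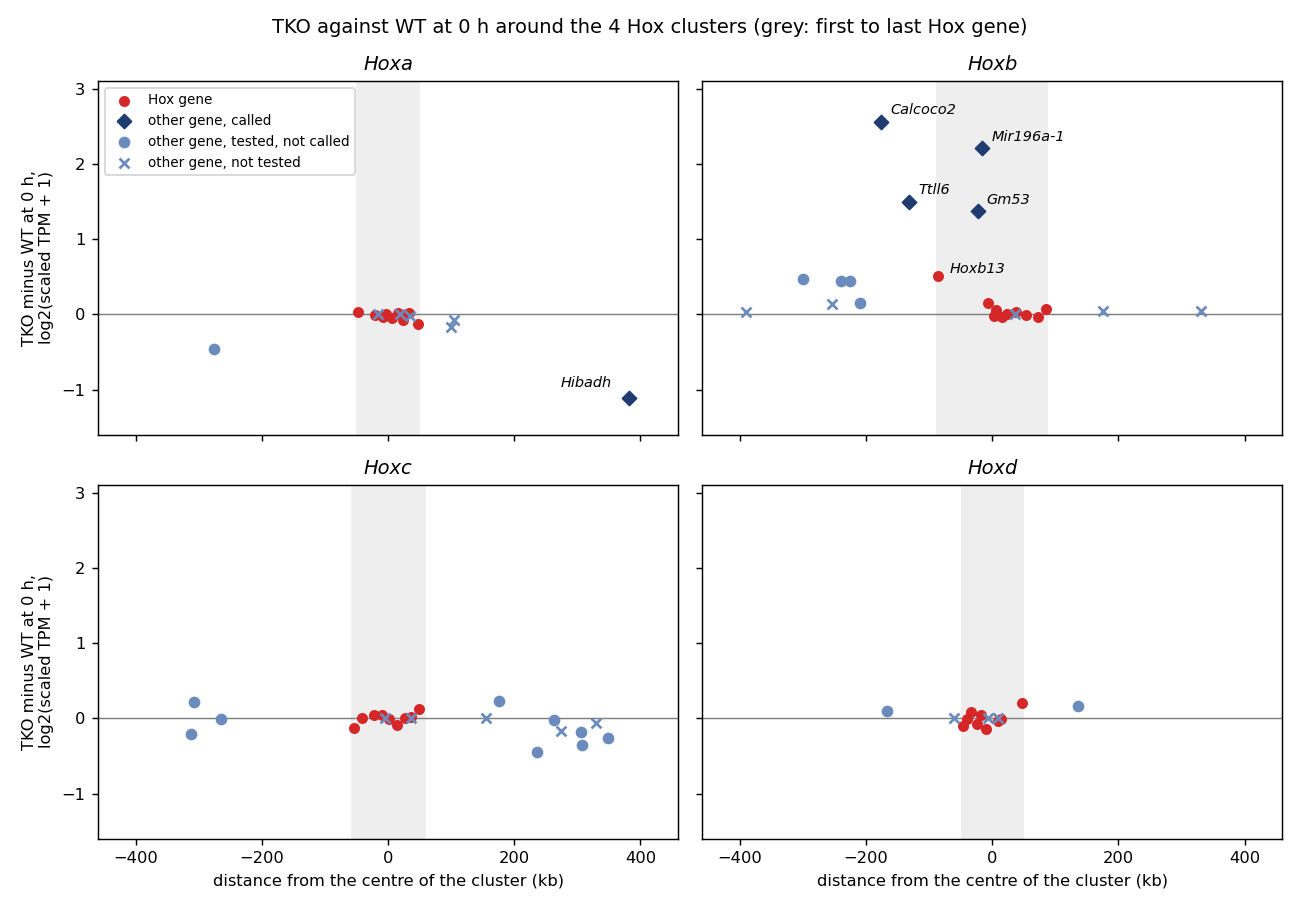
TKO minus WT at 0 h on the log2(scaled TPM + 1) scale (y axis) against distance from the centre of each cluster in kb (x axis), for 37 Hox genes with 1 annotated position (red) and other genes within 300 kb (blue); the grey band runs from the first to the last Hox gene. Hoxb13, at 0.50, lies highest of the Hox genes drawn, and the 4 called genes around Hoxb run from 1.37 to 2.56; no gene beyond the Hoxb1 end of that cluster was tested.

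Of the genes that read, open or close the clusters, some differed between genotypes. The counts below stand against 1309 genes (10.5%) called higher and 677 called lower of all 12467 tested at 0 h. Of 8 genes listed for TALE cofactors, homeodomain proteins that bind DNA beside Hox proteins, 7 were tested, and 2 were called higher and 0 lower in TKO at 0 h. These were Meis3 (0.88, SE 0.15, adjusted p = 0.00135) and Pknox2 (0.76, SE 0.12, adjusted p = 0.000707). With quantile normalisation Pknox2 (0.56) was under the fold limit. The list's median was 0.29, against -0.02 over all tested genes. Of 19 retinoic acid genes 14 were tested, with 6 called higher and 1 lower and a median of 0.23. Crabp2, a carrier of retinoic acid to its receptors, rose most (1.54, SE 0.09, adjusted p = 2.86e-06), from 4.69 and 4.46 TPM in WT to 16.6 and 15.9 TPM in TKO. Stra8, a gene that retinoic acid induces in germ cells, was higher by 1.17 (SE 0.16, adjusted p = 0.000394), and Rxrg, a retinoid X receptor, lower by 0.88 on that scale (-0.88, SE 0.10, adjusted p = 0.000126).

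Among 14 Cdx, T and trithorax-type activators, 12 were in the files, 10 were tested, 0 were called higher and 1 lower. This was Cdx1, a direct activator of Hox genes (-1.34, SE 0.16, adjusted p = 0.000137), at 3.35 and 2.77 TPM in WT and 0.457 and 0.821 TPM in TKO. All 11 PRC2 genes were tested, with 1 called higher, Suz12, a core subunit (0.77, SE 0.05, adjusted p = 6.94e-06), and 0 lower. Without the fold limit, 4 PRC2 genes were higher and 6 lower by adjusted p, with a median of -0.24. By that rule 3471 of all 12467 tested genes were higher and 3518 lower. Of 19 genes listed as flanking the clusters, 18 were in the files and 15 were tested, with 2 called higher (Calcoco2 and Ttll6) and 1 lower (Hibadh, an enzyme of valine breakdown beyond Hoxa, -1.11, SE 0.06, adjusted p = 2.76e-06), and a median of 0.05. Of 23 noncoding or uncharacterised genes listed for the clusters, 11 were in the files and 3 were tested, with Gm53 and Mir196a-1 called higher and none lower. Both passed the filter mainly through TKO. The third, Mir3072, has no position at a cluster in the annotation used.

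Polyadenylated and ribodepleted RNA of WT cells were compared at 0 h. In polyA RNA 26 of 38 members were higher and 12 lower, from -0.19 for Hoxb13 to 0.47 for Hoxc4 on the log2(scaled TPM + 1) scale. Of the 38, 12 (31.6%) were higher in all 3 polyA libraries than in both ribodepleted ones and 2 (5.26%) lower, against 35.6% and 37.4% of all genes. In the voom fit, again chosen after seeing the data, genes needed at least 10 reads over the 3 polyA and 2 ribodepleted libraries. Of the 38, 28 passed, 21 of them with under 10 reads in WT at 0 h, so most passed through the deeper polyA libraries. Of the 28, 8 were called higher and 0 lower, and 20% of all genes were called higher and 20.6% lower. Nothing is read from that count, because of the filter.

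These 8 were Hoxd1, Hoxc4, Hoxa4, Hoxb1, Hoxa7, Hoxa3, Hoxb9 and Hoxd13. Of these, Hoxb9 and Hoxd13 had at least 10 reads in WT at 0 h, and the rest passed the read filter through polyA RNA. Hoxc4 and Hoxd1 were called in every fit that left out 1 library, and the other 6 lost their call in at least 1. For Hoxc4 and Hoxd1 this adds no support, since the same filter let them in. Hoxc4, a gene of the low end of its cluster with roles in neck and immune cells, had 43, 27 and 38 reads in polyA RNA and 2 and 1 in WT at 0 h (2.69, SE 0.66, adjusted p = 0.00123). Hoxd1 had 18, 16 and 13 reads against 0 and 0, at least 3.76-fold higher against a floor of 3 reads over the group. Hoxa7, a gene of the trunk, had 41, 30 and 30 reads against 1 and 4 (2.17, SE 0.63, adjusted p = 0.00448), and it lost its call without replicate 1 of WT at 0 h (adjusted p = 0.108). Hoxd13 was higher by 0.97 (SE 0.30, adjusted p = 0.00731), and lost its call without the same library (0.64, adjusted p = 0.147). Gm53 and Mir196a-1 were also higher in polyA RNA, with 121 to 134 and 48 to 53 reads against 4 and 11 and 0 and 2. The 2 kinds of library also differ in depth. This, and anything else that differed between the 2 sequencing experiments, cannot be told apart from RNA selection.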

How the data were processed

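The authors deposited one table per library with a value per gene in TPM. Per their methods and labels, reads were checked with FastQC, cleared of low-complexity, rRNA and tRNA reads (AfterQC, Bowtie2), trimmed (Trimmomatic), aligned to mm9 with STAR and RefSeq genes, counted with HTSeq and converted to TPM. Versions and strand setting are not given in the sources used here.

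The Hox genes and all lists were chosen with earlier results of these data known. Of 39 genes that match the symbol rule, 1 is not reported here and enters no count or sum of Hox genes. Each library's TPM was scaled by a size factor (median of ratios over tested genes), and limma 3.58.1 was run on log2(scaled TPM + 1) (R 4.3.3, eBayes with trend, 4 groups, two-sided, genes with a mean above 1, 12467 tested). PolyA and WT 0 h libraries had their own fit (12478 tested). Whole reads were recovered within 0.001 read, and implied gene lengths came out whole for the 38 members (699 to 3721 bp). No pair of replicates was a repeat (chi-square per degree of freedom at least 1.53). Alternatives were deposited TPM, quantile normalisation, other pseudocounts and filters, no trend, a replicate block, voom and each library left out; voom with at least 10 reads was added after seeing the data. Scripts were tested on simulated data in which the changed genes had higher means than any of the Hox genes. How the fits find changes at Hox levels was thus not covered. Members tested or over 1 TPM were named in full, with up to 3 called genes per list; all others were named after their values were seen. Cluster sums had no test.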

Additional observations from a re-analysis of the deposited data

How the results depend on the processing

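Read numbers limit these results, since 18 of the 38 Hox genes had under 10 reads over the 8 ribodepleted libraries. The number of Hox genes called was 0 in each comparison, and in voom with at least 10 reads became 2 between genotypes at 0 h, 2 at 4 h and 8 between polyA and ribodepleted RNA. That fit tests 16774 genes between genotypes, against 12467 with the TPM filter. With no filter 38 Hox genes were tested and 0 called, and with a filter of 0.1 TPM 12 to 15 were tested and 0 called. In all other alternatives no Hox gene passed the filter, so their count of 0 could not change. A limit of 0.5 TPM gave 3 (WT polyA), 2 (WT 0 h), 1 (WT 4 h), 1 (TKO 0 h) and 3 (TKO 4 h) Hox genes, and a limit of 2 TPM gave 0 in every group. With every library required over 1 TPM, WT polyA had 0. With a library left out, the number over 1 TPM was 0 to 1 for TKO at 0 h. On scaled TPM the Hoxc sums differed by 0.21 between genotypes at 4 h and by -0.15 between times in WT, and the cause was not tested. Over the alternatives run, 102 of 104 cluster sums moved by less than the spread between replicates, and the 2 others were those Hoxc sums. Most of the 104 left out 1 library, which cannot move a mean beyond that spread, so stability is not shown by them. Without replicate 1 of TKO at 4 h, the Hoxa difference between genotypes went from -0.43 to 0.04. Of 31 counts over 1 TPM, 23 did not change by more than 1.5 times. Where no group mean passed 1 TPM, a limit of 2 TPM or every library over 1 TPM had to give 0.

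Deposited TPM moved the median of all genes by 0.14 for the genotypes at 4 h and -0.11 for α-amanitin in WT, and split the genotype calls at 4 h into 1940 higher and 444 lower, against 1375 and 725 with size factors and 1047 and 871 under quantile normalisation. With α-amanitin in WT, 4 genes were called higher and 585 lower in deposited TPM, against 11 and 251. Replicate numbers are shared across groups but did not pair the libraries, since deviations from group means correlated between -0.04 and 0.12 and 1 of 6 pairs passed 0.1. With the replicate number as a block, 0 Hox genes passed the filter, so the block bears on none of them, and 1312 genes were higher and 678 lower between genotypes at 0 h.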
